A study of Homo sapiens with 3 samples.

Results

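The 77 nuclear genes named MRPL or MRPS with a number were followed in read counts of H82R small cell lung cancer cells. They were taken from the count table by symbol alone (MRPL or MRPS, a number and, for some, a closing letter A, B or C), which selected 77 of its 27574 genes. A gene is called detected here where each library held 10 counts or more, and all 77 were, against a background of 53% of all genes in the table. They lay on 21 chromosomes and together took 0.399%, 0.363% and 0.388% of all counts in replicates 1, 2 and 3.

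H82 is a human cell line of small cell lung cancer, long established in culture and grown here in RPMI1640 medium with fetal bovine serum. The 3 libraries, replicates 1, 2 and 3, form 1 group: each is labelled as treated with etoposide plus cisplatin, with no dose or time, and the material is called both cells and a treated tumor. Etoposide poisons DNA topoisomerase II, and cisplatin crosslinks DNA. No untreated or parental library was analysed here, and nothing in the labels says whether H82R is a clone, what its R stands for, or whether the libraries came from separate cultures. The data therefore give the level of each gene and its spread between these libraries, which may be technical, and not an effect of treatment.

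Mitochondria keep a small genome of their own that encodes core subunits of the respiratory chain, and a dedicated ribosome, the mitoribosome, translates its messages at the inner membrane. All protein subunits of that ribosome are encoded in the nucleus, made in the cytosol and imported, while its rRNAs are transcribed inside the organelle. Many subunits descend from bacterial ribosomal proteins and others were added during the evolution of mitochondria. The large subunit joins amino acids and holds the exit tunnel, and the small subunit binds the mRNA and reads codons. The names are older than the structures: MRPS30 and MRPS18A sit in the large subunit, and MRPS36 is now known as a component of the 2-oxoglutarate dehydrogenase complex.

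Replicates 1, 2 and 3 held 25013265, 42610181 and 23868201 counts, and 14612 genes were detected. CPM sets the counts of libraries of unequal depth on 1 scale, and levels of different genes are compared as CPM per kb of exon, which the annotation gave for 13527 detected genes. The median detected gene stood at 5.54 CPM per kb ± 0.0582 (SD, n = 3). Of the markers of small cell lung cancer, all 8 were detected, from 9.33 CPM (INSM1) to 371 CPM (NEUROD1). Of 8 markers of other cell types that a culture could hold, PTPRC, LUM and DCN were not detected, COL1A1, PECAM1 and VWF stood between 0.406 and 0.876 CPM, and the immune markers CD3E and CD68 at 7.62 and 22.6 CPM.

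Per kb of exon, mitoribosomal protein genes were mostly expressed above the typical gene of these cells. By limma's one-sample test of each gene against the median detected gene of the same library (Benjamini-Hochberg over 13527 genes, threshold 0.05), 63 of 77 lay above it, 9 below, and 5 were not distinguished from it. In RNA of whole cultures, fewer cells with a transcript and less of it per cell cannot be told apart. Of all genes tested, 45.3% were called above and 45.1% below, with a median log2 distance of 0.00. The members' median log2 distance was 1.29, which is 2.45 times the median gene. Their levels ran from 0.213 to 95.6 CPM per kb, a 448-fold range, but the quartiles were 8.33 and 24.7. With no division by length, the counts became 41 of 77 above and 19 below, against 45.5% and 45.6% of all genes tested. At that setting the members' median log2 distance was 0.31. The median exon length was 2539 bases for the members and 5130 bases for all detected genes with a length.

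**Figure D1:**
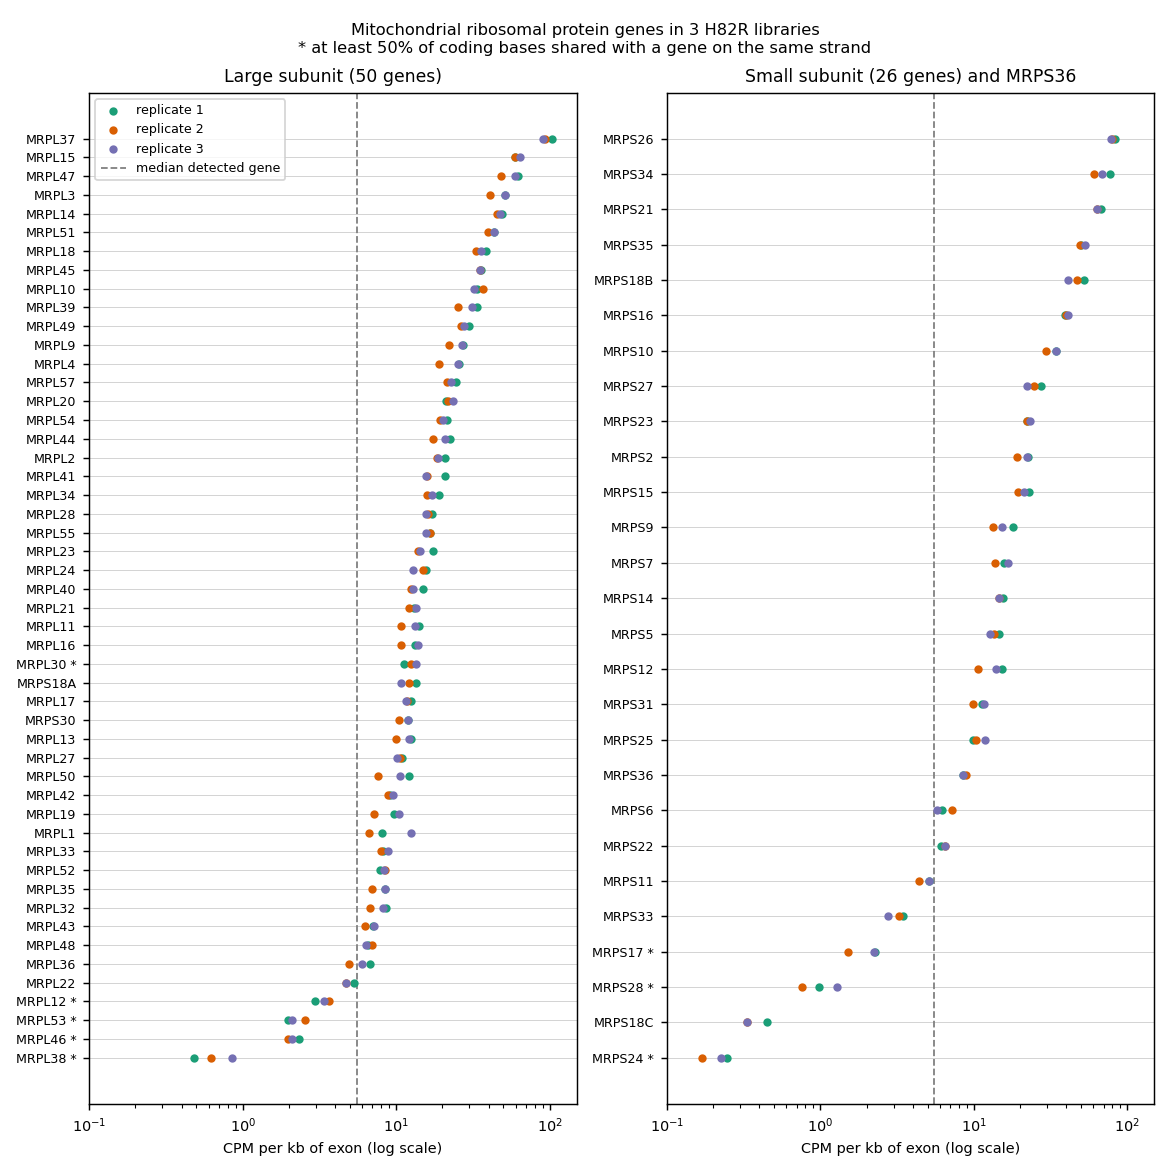
Level of each of the 77 genes in the 3 libraries, in CPM per kb of exon on a log axis; points are libraries and the dashed line is the median detected gene (5.54). Genes are ordered by mean level, 44 of 50 large subunit and 18 of 26 small subunit genes were called above the line, and stars mark the 8 genes whose coding bases are 50% or more in common with a gene on the same strand.

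With all members included, the small subunit's median level was slightly the higher in every library. The median of the 50 large subunit genes was 14.5, 12.4 and 13.5 CPM per kb in replicates 1, 2 and 3, and that of the 26 small subunit genes was 15.6, 13.7 and 14.8. The ratio of large to small was 0.925, 0.906 and 0.909. The order turned in replicate 2 when genes sharing at least 50% of their coding bases with a gene on the same strand were left out. The medians were then 16.6, 14.9 and 14.2 for the large subunit and 17.9, 14.5 and 16.8 for the small. Of the large subunit genes, 44 lay above the median gene, 4 below and 2 were not distinguished, and the corresponding counts for the small subunit were 18, 5 and 3. The quartiles of the small subunit were 6.34 and 30.6 CPM per kb, and those of the large subunit 9.08 and 23.2. By descent, 36 of 45 subunits with a bacterial counterpart and 25 of 30 specific to mitochondria lay above the median gene, with class medians of 14.2 ± 0.930 and 15.4 ± 2.10 CPM per kb (SD over 3 libraries). MRPS18A and MRPS18B were counted among the 30, although both are related to a bacterial protein, S18. No test between these classes was made, since genes are not replicates.

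Of the 2 other multisubunit machines compared, the respiratory chain was the nearer in level. Its 75 nuclear genes had a median of 16.7 ± 1.36 CPM per kb, with 59 above the median gene, 12 below and 4 not distinguished. The cytosolic ribosomal proteins, which build the ribosome outside the organelle, had a median of 202 ± 19.1 CPM per kb over 76 detected genes of 77, with 71 above and 3 below. The shares of all genes tested were 45.3% above and 45.1% below. The members' median was 14.2 ± 0.930. Every library put the cytosolic list at 181 or more and the mitoribosomal genes at 15.2 or less.

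**Figure D2:**
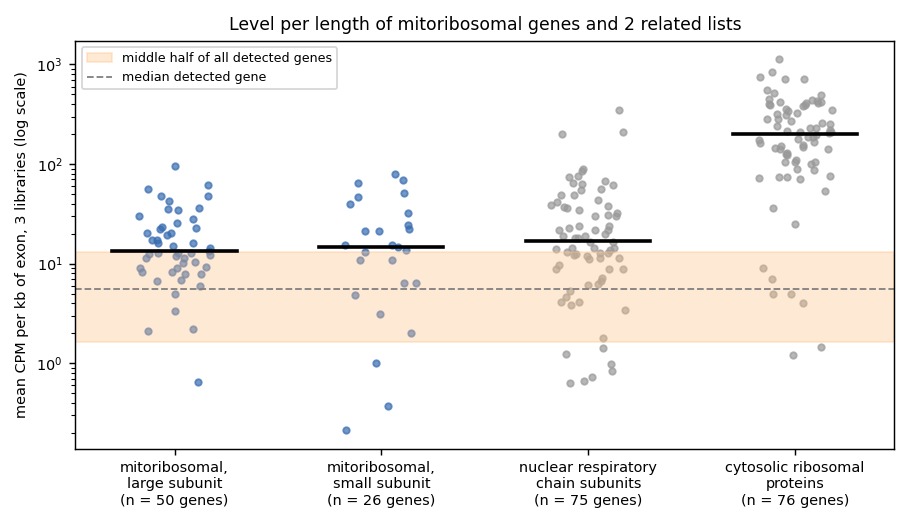
Mean level of each gene over 3 libraries, in CPM per kb of exon on a log axis, for the large (50 genes) and small (26 genes) mitoribosomal subunits, 75 nuclear respiratory chain subunits and 76 cytosolic ribosomal proteins. Bars are list medians (the mean of the medians in each library), the band runs between the quartiles of all detected genes (1.64 to 13.2) and the dashed line their median; mitoribosomal and respiratory chain medians lie just above the band, between 13.4 and 16.7, and the cytosolic median at 202.

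Promoter sequences were available for 68 of the 77 genes from RefSeq (GRCh38.p14), each from 250 bases before to 50 bases after the gene's start. The ones printed here are those of the highest gene (MRPL37), of a highly expressed gene rich in ETS letters (MRPS34), of a gene paired head to head with a respiratory chain gene (MRPL47), and of the pair MRPS11 and MRPL46, which share a start region. Capitals mark the letters searched, on either strand, for 5 motifs. The first was CCGGAAG, the core bound by ETS factors such as GABPA, whose opposite strand reads CTTCCGG. For NRF1, a regulator of nuclear genes for mitochondrial proteins, the letters were GCATGCGC. For YY1, a factor that often binds at the start of transcription, they were AAGATGG, with CCATCTT on the opposite strand. The other two were the E-box, CACGTG, and the CCAAT box, which reads ATTGG on the opposite strand.
MRPL37, chr1:54199917-54200216, plus strand: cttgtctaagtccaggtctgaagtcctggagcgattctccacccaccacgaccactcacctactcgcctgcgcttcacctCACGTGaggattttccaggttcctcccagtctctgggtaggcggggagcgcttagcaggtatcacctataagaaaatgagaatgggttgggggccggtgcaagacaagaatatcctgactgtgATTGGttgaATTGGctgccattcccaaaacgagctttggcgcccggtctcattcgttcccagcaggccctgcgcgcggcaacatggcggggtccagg
MRPS34, chr16:1773085-1773384, minus strand: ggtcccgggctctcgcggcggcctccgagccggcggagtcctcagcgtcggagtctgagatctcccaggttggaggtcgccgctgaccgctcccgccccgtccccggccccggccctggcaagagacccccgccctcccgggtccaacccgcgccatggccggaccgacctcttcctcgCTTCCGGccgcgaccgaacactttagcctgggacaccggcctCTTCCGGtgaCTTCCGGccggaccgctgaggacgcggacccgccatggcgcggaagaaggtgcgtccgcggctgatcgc
MRPL47, chr3:179604589-179604888, minus strand: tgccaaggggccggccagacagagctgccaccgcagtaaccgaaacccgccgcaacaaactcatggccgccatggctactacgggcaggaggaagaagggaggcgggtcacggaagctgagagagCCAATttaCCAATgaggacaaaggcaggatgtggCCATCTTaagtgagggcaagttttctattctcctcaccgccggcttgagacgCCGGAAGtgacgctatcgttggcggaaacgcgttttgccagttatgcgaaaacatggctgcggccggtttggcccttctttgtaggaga
MRPS11, chr15:88467458-88467757, plus strand: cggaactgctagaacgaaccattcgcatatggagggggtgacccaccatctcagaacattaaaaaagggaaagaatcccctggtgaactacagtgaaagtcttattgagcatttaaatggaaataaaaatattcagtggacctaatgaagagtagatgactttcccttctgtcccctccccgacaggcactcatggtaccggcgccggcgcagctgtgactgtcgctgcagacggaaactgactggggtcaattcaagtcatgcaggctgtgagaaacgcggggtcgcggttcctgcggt
MRPL46, chr15:88467339-88467638, minus strand: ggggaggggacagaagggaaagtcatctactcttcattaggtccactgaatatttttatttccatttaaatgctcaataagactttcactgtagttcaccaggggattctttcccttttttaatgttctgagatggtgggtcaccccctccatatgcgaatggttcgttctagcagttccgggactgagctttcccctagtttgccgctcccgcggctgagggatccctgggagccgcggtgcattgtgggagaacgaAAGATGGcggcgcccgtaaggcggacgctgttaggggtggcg
MRPS34 held the ETS letters at 3 places, starting at bases 180, 222 and 232 of its window. MRPL47 held ETS, YY1 and CCAAT letters, while MRPL37 held an E-box and CCAAT letters and none of the first 3 motifs. MRPS11 held none of the 5, and MRPL46 held the YY1 letters alone, starting at base 259 of its window. The windows of MRPS11 and MRPL46 share 181 bases on opposite strands.

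The letters associated with ETS factors and YY1 were more frequent in these promoters than in others of the same length. ETS letters were present in 28 of 68 (41.2%), against 10.3% of all 35116 promoters and 18.1% of those of 10402 detected protein-coding genes. YY1 letters were present in 23 (33.8%), against 5.84% and 7.48%. NRF1 letters were present in 6 (8.82%), against 3.05% and 5.38%. The first 2 motifs can overlap, since the AAG that ends the ETS letters also begins the YY1 letters. At least 1 of the 3 was present in 43 promoters (63.2%), against 17.6% of all and 27.5% of detected coding genes. The E-box was present in 8.82%, against 7.26% and 10.1%, and CCAAT in 29.4%, against 34.6% and 36.8%, so neither was more frequent than in detected coding genes, and the median GC content was 60.3% against 58.7%. The genes with ETS letters had a median level of 12.9 CPM per kb and those without 15.2, and for YY1 the medians were 12.7 and 14.8. These matches are descriptions of letters, not of bound sites.

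The 6 highest genes per kb of exon were MRPL37, MRPS26, MRPS34, MRPS21, MRPL15 and MRPL47. With no division by length, MRPS27 (161 CPM), MRPL42 (151), MRPS23 (144), MRPL3 (130) and MRPS16 (112) exceeded all of these but MRPL37 (244). MRPL37, a mitochondrion-specific protein of the large subunit (chromosome 1 from 54184041 to 54225464 on GRCh38, a span that holds the RefSeq start printed here), stood at 103, 92.9 and 91.0 CPM per kb in replicates 1, 2 and 3. It lay above the median gene by 4.10 ± 0.07 (SE) on the log2 scale (limma, adjusted p = 1.1e-09), a 17.2-fold higher level. MRPS26, a mitochondrion-specific protein of the small subunit (chromosome 20 from 3045945 to 3048254), stood at 83.1, 79.5 and 78.0. No spread beyond counting error was detected among its 3 counts.

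MRPS34, another mitochondrion-specific small subunit protein, in which inherited defects cause Leigh syndrome (chromosome 16 from 1771890 to 1773155), stood at 77.0, 60.2 and 67.9. MRPS21, a bacterial-type protein of the platform, stood at 67.7, 63.6 and 63.4. MRPL15, a bacterial-type large subunit protein, stood at 59.4, 59.2 and 64.3 and was highest in replicate 3. MRPL47, which lies by the exit of the peptide tunnel (chromosome 3 from 179588285 to 179604654), stood at 62.2, 48.3 and 59.1. Replicate 2 was the lowest for both MRPS34 and MRPL47. Together these 6 genes took 17.4% of the members' counts.

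In the catalytic core of the large subunit, where peptide bonds form, each of the 3 genes exceeded the median gene. MRPL3 was the highest, at 51.4, 40.9 and 51.1 CPM per kb, and MRPL16 the lowest, at 13.3, 10.8 and 13.9. MRPL2, whose bacterial counterpart supports peptidyl transfer, lay between them at 19.3 ± 1.31 (SD, n = 3). MRPL3 and MRPL16 did not overlap in any library, and both were lowest in replicate 2. MRPL16 lay at a log2 distance of 1.18 ± 0.10 (limma, adjusted p = 5.3e-06), which was -0.01 with no division by length.

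Of the 7 genes lining or surrounding the exit tunnel, 6 lay above the median gene. MRPL47 was the highest of them. MRPL45, which anchors the ribosome at the inner membrane, stood at 35.9, 35.4 and 35.1 CPM per kb, the smallest spread of all 77 genes (SD of log2 CPM 0.016). MRPL4 stood at 25.7, 19.0 and 25.2, with replicate 2 below the other two. MRPL22 was the lowest, at 5.29, 4.71 and 4.69, and could not be told from the median gene (log2 distance -0.18 ± 0.09, limma, adjusted p = 0.0911). The remaining 3, MRPL23, MRPL24 and MRPL17, had means between 11.9 and 15.2.

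The central protuberance, the crest of the large subunit, held both high and low genes, with 4 above the median gene and 2 below it. MRPL18, whose bacterial counterpart binds 5S rRNA, was the highest at 38.7, 33.1 and 35.5 CPM per kb. MRPL40, MRPL27 and MRPL48 followed with means of 13.4, 10.5 and 6.62. MRPL46 stood at 2.32, 1.96 and 2.09, and MRPL38 at 0.484, 0.620 and 0.854. The highest library of MRPL38 was thus below the lowest of MRPL46, and both fell short of the median gene in every library.

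The stalk, which recruits translation factors to the ribosome, was likewise split. MRPL10, the anchor of the stalk, stood at 33.4, 37.0 and 32.1 CPM per kb and MRPL11 at 14.0, 10.8 and 13.3. MRPL12, the flexible arm that binds the factors and is present in several copies per ribosome, stood at 2.98, 3.64 and 3.41. Its log2 distance was -0.71 ± 0.15 (limma, adjusted p = 0.00231). MRPL12 shares 96.0% of its coding bases with another gene on the same strand, and MRPL10 shares none. The part of this overlap in the low counts of MRPL12, and so in its ratio to MRPL10, was not tested. The ratio of MRPL10 to MRPL12 was 11.2, 10.2 and 9.42 per kb of union exon, and averaged 16.5 ± 1.45 (SD, n = 3) with the APPRIS principal transcript, the annotation's reference isoform.

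In the small subunit, the 4 genes of the head all lay above the median gene. MRPS10 was the highest, at 34.1, 29.4 and 34.2 CPM per kb, and MRPS14 the lowest, at 15.5, 14.5 and 14.5. MRPS9 and MRPS7 had the same mean, 15.5, with SDs of 2.26 and 1.52.

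Around the decoding site and the mRNA channel, the test put 3 genes above the median gene and 1 below. MRPS2 stood at 22.4, 19.1 and 22.2 CPM per kb and MRPS5 had a mean of 13.6 ± 0.921. MRPS12, whose bacterial counterpart monitors codon and anticodon pairing and is the site of streptomycin resistance mutations, stood at 15.2, 10.6 and 13.9. It was lowest in replicate 2. MRPS24, which lines the mRNA entry, was the lowest of all 77 genes, with 16, 19 and 14 counts, or 0.247, 0.170 and 0.224 CPM per kb. Its log2 distance from the median gene was -4.56 ± 0.23 (limma, adjusted p = 2.2e-07). MRPS24 shares 92.2% of its coding bases with another gene on the same strand, and the part of this overlap in its low counts was not tested.

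The platform held high and low genes, with 2 genes above the median gene, 1 below and 2 not distinguished. MRPS21 and MRPS15 (21.1 ± 1.64 CPM per kb) lay above it. MRPS6 stood at 6.16, 7.16 and 5.73 (log2 distance 0.19 ± 0.10, limma, adjusted p = 0.105) and MRPS11 at 5.12, 4.40 and 5.07 (-0.19 ± 0.09, adjusted p = 0.0758). MRPS18C had 54, 69 and 39 counts, or 0.447, 0.332 and 0.334 CPM per kb. Its log2 distance was -3.87 ± 0.18 (limma, adjusted p = 1.7e-07).

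MRPS18A, MRPS18B and MRPS18C are related to 1 bacterial protein, S18, and occupy different places in the mitoribosome: MRPS18A is in the large subunit, and the other two are in the small. MRPS18B was the highest of the 3, at 52.4, 47.1 and 41.2 CPM per kb, and MRPS18A stood at 13.4, 12.1 and 10.8. Both followed the same order over the libraries, and their ratio was 3.90, 3.90 and 3.81. MRPS18B exceeded MRPS18C by 117, 142 and 123 times per kb of union exon, and by 48.8, 59.1 and 51.3 times with the longest or the APPRIS transcript. MRPS18C, the copy in the position of bacterial S18 on the platform, was the lowest of the 3 in every library.

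MRPS30, the other large subunit protein with a small subunit name, had 1849, 2789 and 1785 counts, a mean of 11.5 ± 0.856 CPM per kb. MRPS36 stood at 8.47, 8.92 and 8.48, above the median gene by 0.64 ± 0.11 (limma, adjusted p = 4.6e-04), and no spread beyond counting error was detected among its counts. With no division by length MRPS36 and MRPS18A turned to log2 distances of -1.13 and -0.89, both called below, and with the APPRIS principal transcript MRPS36 was at 0.17 and not called.

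The other genes not distinguished from the median gene were MRPS22 and MRPL36. MRPS22, a mitochondrion-specific small subunit protein with inherited defects in mitochondrial disease, stood at 6.09, 6.45 and 6.46 CPM per kb (limma, adjusted p = 0.0551). MRPL36, a small bacterial-type protein of the large subunit, stood at 6.79, 4.95 and 6.02 (limma, adjusted p = 0.535), so that its libraries lay on both sides of the median gene. MRPS22, MRPL36 and MRPS6 were called above it when the length of the longest protein-coding transcript was used, at log2 distances of 1.43, 0.34 and 1.75, and with the APPRIS transcript, at 1.48, 0.58 and 1.58, while with no division by length MRPL36 was called below (-1.81). With a filter of at least 1 count in any library, which brings weaker genes into the median, all 5 were called above it, from 0.73 (MRPS11) and 0.74 (MRPL22) to 1.12 (MRPS22), and MRPL12 was at 0.21 and not called. With at least 1 CPM in every library, MRPL22 (-0.38) and MRPS11 (-0.40) were called below instead, and MRPS11 was also below with the APPRIS transcript (-0.29).

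The low genes were mostly ones that share their coding sequence with another annotated gene. In GENCODE 29, which need not be the authors' annotation, 8 of the 77 share at least 50% of their coding bases with another gene on the same strand. Of these 8, 7 lay below the median gene (MRPL12, MRPL38, MRPL46, MRPL53, MRPS17, MRPS24 and MRPS28) and 1 above (MRPL30). Of the other 69 genes, 62 lay above, 2 below and 5 were not distinguished. Some of the 69 share a smaller part: MRPS6, which was not distinguished, 49.3%, and MRPL20, MRPL9 and MRPL33, all above, 20.0%, 10.6% and 9.88%. The part of this overlap in the low counts was not tested, as the rule by which reads in shared bases were counted is not given in the sources used here.

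The shared fractions were 100% for MRPL53 and MRPS17, 96.0% for MRPL12, 94.1% for MRPL38, 92.2% for MRPS24, 64.0% for MRPL46 and 53.0% for MRPS28. MRPL53 (1.98, 2.54 and 2.08 CPM per kb) shares its coding bases with CCDC142, which stood at 3.39 ± 0.490. MRPS24 shares its bases with the read-through gene URGCP-MRPS24, which had 0 counts in every library, where up to 0.121, 0.0702 and 0.125 CPM are allowed by a count of 0. MRPS17, a bacterial-type protein of the small subunit body, stood at 2.26, 1.52 and 2.24 CPM per kb. MRPS28, the counterpart of bacterial S1, had 44, 59 and 56 counts, or 0.975, 0.760 and 1.29 CPM per kb, with replicate 2 the lowest. MRPL30 shared 95.3% and stood at 11.2, 12.4 and 13.5.

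The 2 low genes without such overlap were MRPS18C and MRPS33. MRPS33, a mitochondrion-specific small subunit protein, stood at 3.44, 3.26 and 2.75 CPM per kb and shared no coding bases with a gene on either strand. MRPS18C shared none on its own strand and 45.1% when the opposite strand was included, with ABRAXAS1. Among all detected coding genes, 461 shared at least 50% of their coding bases, and 73.5% of them lay below the median gene, against 43.7% of the other 12893. Such sharing touched 10.4% of the members and 3.45% of detected coding genes. MRPL46 depended on the length taken: with the longest protein-coding transcript its log2 distance was 0.71 and with the APPRIS principal transcript 0.55, both called above.

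**Figure D3:**
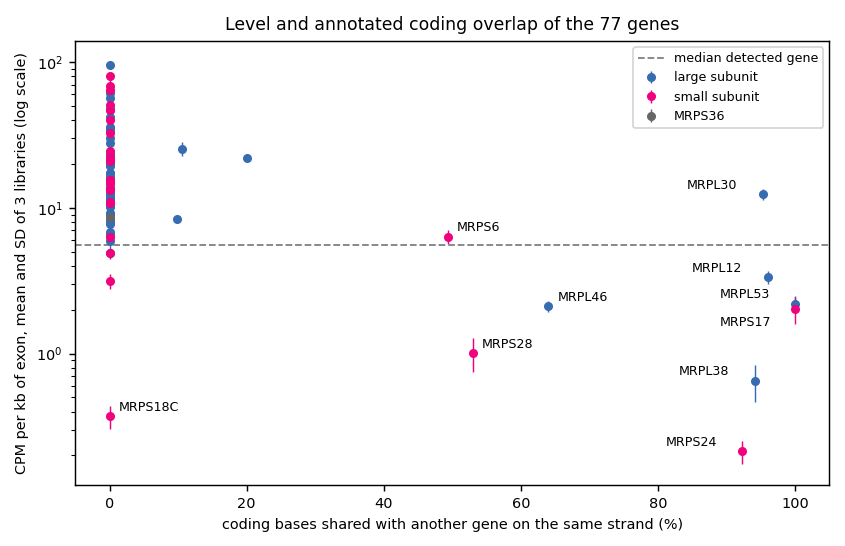
Mean level of each of the 77 genes (CPM per kb of exon, log axis, bars are the SD of 3 libraries) against the percentage of its coding bases shared with another gene on the same strand in GENCODE 29. Of the 8 genes at 50% or more, 7 lie below the median detected gene (dashed line) and MRPL30 above it; MRPS18C is low at 0%.

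Many of these genes start close to another gene on the opposite strand. In GENCODE 29 a protein-coding start lay within 1000 bases on the opposite strand for 29 of 77 (37.7%), against 16.8% of 13349 detected protein-coding genes, and within 100 bases for 15 (19.5%), against 5.36%. Several partners belong to mitochondrial pathways. MRPL47 starts 36 bases from NDUFB5, a subunit of respiratory complex I, and MRPL36 starts 34 bases from NDUFS6, another subunit of that complex. MRPL43 lies 148 bases from TWNK, the mitochondrial DNA helicase, MRPS12 lies 348 bases from SARS2, the mitochondrial seryl-tRNA synthetase, and MRPS11 and MRPL46 start 34 bases apart, although the RefSeq starts behind the windows printed here lie 320 bases apart.

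Partners did not stand at 1 common level. MRPL47 stood at 56.5 ± 7.29 CPM per kb and NDUFB5 at 14.5 ± 0.707, whereas MRPL36 stood at 5.92 ± 0.921 and NDUFS6 at 23.8 ± 3.90. By these values the mitoribosomal gene was the higher of the first pair and the lower of the second, in every library. The first order depends on the length taken: the ratio of MRPL47 to NDUFB5 was 4.52, 3.18 and 4.08 per kb of union exon, 3.11, 2.19 and 2.81 with the longest protein-coding transcript, but 0.878, 0.618 and 0.793 with the APPRIS transcript. The order of MRPS11 and MRPL46 likewise depends on the length: their ratio was 2.21, 2.24 and 2.43 per kb of union exon. With the longest or the APPRIS transcript it was 0.541, 0.548 and 0.594, which puts MRPL46 the higher. MRPL46 also shares 64.0% of its coding bases with another gene on the same strand, whose part in this ratio was not tested. MRPS34 stood at 68.4 ± 8.41 and EME2, a DNA repair nuclease subunit 52 bases away, at 0.766 ± 0.219, a ratio of 150, 67.6 and 75.9 that was 28.3, 12.7 and 14.3 with the longest transcript. MRPL18 stood at 35.8 ± 2.81 and TCP1, a chaperonin subunit 63 bases away, at 64.2 ± 9.35, and both were lowest in replicate 2.

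**Figure D4:**
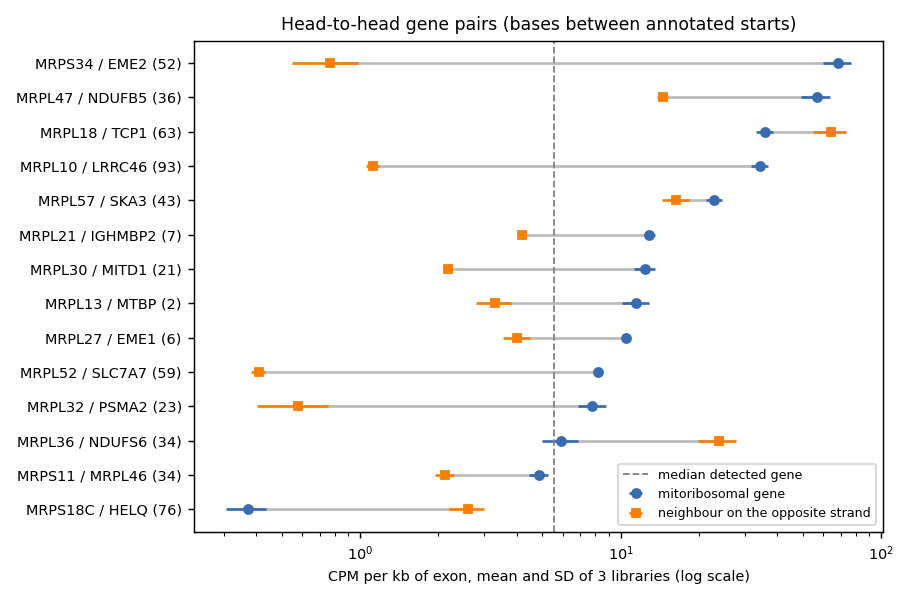
Levels of the 14 gene pairs that start within 100 bases of each other on opposite strands, in CPM per kb of exon on a log axis (mean and SD of 3 libraries; bases between starts in brackets). Circles are mitoribosomal genes and squares their neighbours (in the pair MRPS11 and MRPL46 both are mitoribosomal); by this length the neighbour is higher for MRPL18, MRPL36 and MRPS18C and lower for the other 11. Of the 5 pairs compared with the APPRIS transcript (those of MRPL47, MRPS11, MRPS34, MRPL18 and MRPL36), the order turned for the first 2.

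Spread between libraries beyond counting error was found for 54 of the 77 genes (70.1%) by a chi-square test of homogeneity (Benjamini-Hochberg, threshold 0.05). The background was 68.7% of all detected genes, so the count is near that of genes at large. It was 78.1% of the 3539 detected genes between the members' quartiles of CPM (25.8 to 65.3), which is above the members' share. Without replicate 2, which was sequenced deepest, 21 were called (27.3%), against 39% of detected genes.

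More members were lowest in replicate 2, and more were highest in replicate 1, than of all detected genes; 31 of 77 (40.3%) were both, against 16.8% of all detected genes. The lowest log2 CPM was in replicate 2 for 47 genes, in replicate 1 for 10 and in replicate 3 for 20. Of all detected genes, 36.4% were lowest in replicate 2, 30.3% in replicate 1 and 33.3% in replicate 3. The highest was in replicate 1 for 48 genes, with a background of 31.1%, in replicate 2 for 7 (background 36.4%) and in replicate 3 for 22 (background 32.5%). The median deviation from a gene's own mean was 0.08, -0.08 and 0.03 (log2) in replicates 1, 2 and 3. In sum the members held 4017, 3618 and 3860 CPM. Large and small subunit genes had median deviations of 0.09, -0.08, 0.03 and 0.07, -0.08, 0.03.

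The respiratory chain genes deviated by 0.09, -0.07 and -0.03 (median), and the cytosolic ribosomal proteins by 0.03, 0.14 and -0.16. Of the respiratory chain genes, 39 of 75 were lowest in replicate 2, 54 highest in replicate 1 and 33 both (44%). Of the cytosolic genes, 67 of 76 were highest in replicate 2 and 66 lowest in replicate 3. By these medians the genes of the 2 ribosomes stood in a different order over the libraries, which was not tested. Detected genes with exon lengths between the members' quartiles (1705 to 3573 bases, 3168 genes) had median deviations of 0.02, 0.01 and -0.02. Among detected genes between the members' quartiles of CPM (25.8 to 65.3), 41.1% were lowest in replicate 2. The source of this spread was not tested, and the labels give no batch, date or culture for the libraries.

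**Figure D5:**
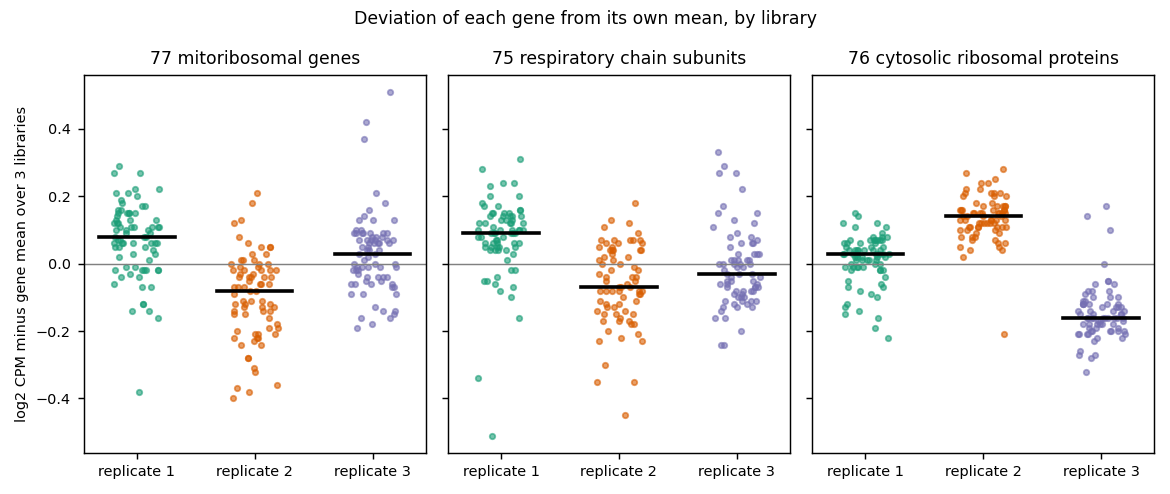
Deviation of each gene's log2 CPM from its own mean over 3 libraries, for 77 mitoribosomal genes, 75 nuclear respiratory chain subunits and 76 cytosolic ribosomal proteins; points are genes and bars medians. Mitoribosomal medians are 0.08, -0.08 and 0.03 in replicates 1, 2 and 3, and cytosolic medians 0.03, 0.14 and -0.16.

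The gene with the widest spread was MRPL1, a protein of the mobile L1 stalk, with 8.08, 6.64 and 12.5 CPM per kb and an SD of log2 CPM of 0.467. Replicate 3 was the high library for MRPL1, as it was for MRPL38 and MRPS28. MRPL50, a mitochondrion-specific large subunit protein, stood at 12.1, 7.58 and 10.6, and MRPL19, a bacterial-type large subunit protein, at 9.75, 7.19 and 10.4. Replicate 2 was the lowest for both, as it was for MRPS17, MRPS12 and MRPL4, the remaining genes among the 8 with the largest SD past the test. With no division by length MRPL1 turned to a log2 distance of -0.76 and MRPS12 to -0.04. MRPL50 was no longer called above with no length (0.19), the longest transcript (0.27) or the APPRIS transcript (0.11), nor was MRPL1 with the APPRIS transcript (0.32).

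Besides the members, the mitoribosome has proteins with other names, and all 6 examined lay above the median gene in limma's test. The share of all genes tested was 45.3%. DAP3, the GTP-binding protein of the small subunit first described in cell death, stood at 56.1, 74.8 and 59.2 CPM per kb and was highest in replicate 2, unlike most members. AURKAIP1, a small subunit protein, stood at 68.0, 52.1 and 59.8. PTCD3, a small subunit protein of the pentatricopeptide repeat family, was the lowest at 9.25, 8.23 and 9.93.

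Of 25 assembly factors, which process, modify and fold the rRNAs and load the proteins, 13 lay above the median gene, 8 below and 4 were not distinguished. The shares of all genes tested were 45.3% above and 45.1% below. C1QBP, a matrix protein that binds RNA, was the highest at 260, 214 and 240 CPM per kb, and DHX30, an RNA helicase, followed at 29.3, 28.8 and 30.1. MTG1, a GTPase of large subunit assembly, was the lowest at 1.03, 1.31 and 1.72, and 88.8% of its coding bases lie in a further gene of the same strand. Of 13 translation factors, 5 lay above, 2 below and 6 were not distinguished, against the same shares of all genes. TUFM, the elongation factor that delivers aminoacyl-tRNA, stood at 176, 170 and 166, the initiation factor MTIF2 at 31.2, 24.0 and 27.1, and MTFMT, which formylates the initiator tRNA, was the lowest at 3.13, 3.10 and 3.90.

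Of 12 genes of mitochondrial RNA synthesis and maturation, 9 lay above the median gene, 2 below and 1 was not distinguished. All genes tested gave 45.3% above and 45.1% below. LRPPRC, which stabilises mitochondrial mRNAs, stood at 43.4, 39.6 and 46.6 CPM per kb, the RNA polymerase POLRMT at 39.9, 38.4 and 34.9, and the termination factor MTERF1 was the lowest at 2.14, 1.85 and 2.58. SLIRP, the partner of LRPPRC, was not analysed here. The median log2 distance was 0.37 for the assembly factors, 0.17 for the translation factors, 1.86 for RNA synthesis and maturation, and 1.29 for the members.

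Reads of these genes can also fall on copies elsewhere in the genome. GENCODE 29 names 75 pseudogenes for 34 of the members, none of which has a row in the count table, and how multiply mapping reads were treated is not given in the sources used here. Of the named genes, MRPS21 had 8 such copies, MRPS36 had 5, MRPS17 and MRPL42 had 4, and MRPL50, MRPS16 and MRPS33 had 3. MRPS18C was among those with 2. The levels of genes with such copies are uncertain to that extent.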

How the data were processed

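Per the labels' protocols, TRIzol was used to extract total RNA, from which Illumina libraries were prepared. The authors deposited raw read counts per gene symbol for 3 libraries in 1 table, with no normalization. The submitters' processing notes name STAR 2.6.1b and hg38 without a role. Not given in the sources used here are the counting program, annotation, strand setting and any filter.

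Of the names, 13 had been turned into dates and were left out (0.0665%, 0.0707% and 0.0736% of counts). Effective library sizes used TMM factors (edgeR 4.0.16: 0.993, 1 and 1). Detected means at least 10 counts in every library. Lengths are union exons of GENCODE 29 on GRCh38, the assembly that hg38 names: 19590 names matched directly, 481 by an older symbol and 7503 not, and 92.6% of detected genes had a length. Log2 CPM (prior count 2) per kb, minus the library's median over detected genes, went into a two-sided limma-trend test (limma 3.58.1 in R 4.3.3). With 1 group no contrast exists, so edgeR's and DESeq2's count tests were not run. The limma p-values set a gene's mean distance against the spread between these samples, moderated over all genes tested. They cover no other source of variation. A count of 0 was taken to allow 3 counts, and such limits cover counting error only.

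On simulated counts for 13527 genes, limma called 3.5% of 200 genes at distance 0, 94% at 0.5, 98.5% at -0.5 and 100% at 1 and -1. Of 100 genes each raised 1.5-fold and 2-fold in replicate 1 alone, the chi-square test found 99% and 100%. These were drawn above a level that the lowest members, such as MRPS24 (0.558 CPM), did not reach. The chi-square test called 0.0453% of genes that had counting noise only.

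Members and lists were chosen with earlier results of these data known. Genes named are the 6 highest and 6 lowest, the highest and lowest of each site, MRPS18A to C, MRPS30, MRPS36, those not distinguished from the median gene, the 8 with the largest SD past the homogeneity test, the smallest SD, and of each pathway list the 2 highest and the lowest. Other genes, the read-through and neighbouring partners among them, were named after their values were seen. Alternatives were leaving out each library, DESeq2 1.42.0 size factors, plain totals, other filters, a prior count of 0.5, limma-voom, protein-coding genes as reference, 4 other treatments of length, a threshold of 0.01, and leaving out genes with shared coding bases; the APPRIS length, the last and the ratios of gene pairs by other lengths were chosen after seeing the data.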

Additional observations from a re-analysis of the deposited data

How the results depend on the processing

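Counts of genes above and below the median gene stayed within 1.5 times of 63 and 9 under every alternative tried but these. With no division by length, 41 lay above, 19 below and 17 were not distinguished, and the members' median log2 distance was 0.31. Of all genes tested at that setting, 45.5% lay above and 45.6% below. With a filter of at least 1 count in any library, 3 were not distinguished. Without the genes that share at least 50% of their coding bases, 2 lay below. Leaving out 1 library at a time gave 62 to 64 above, 9 below and 4 to 6 not distinguished. Spread beyond counting error was then called for 41, 21 and 46 members (53.2%, 27.3% and 59.7%) without replicates 1, 2 and 3. The shares of all detected genes were 52.8%, 39% and 51.1%. The subunit medians moved with length. They were 24.5 (large) and 26.1 (small) CPM per kb with the longest protein-coding transcript, and 15.0 and 16.0 with exon length minus 200 bases. Without the genes that share coding bases they were 15.2 and 16.4. In that case the large subunit was the higher in replicate 2, at 14.9 against 14.5.

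Among 35 named genes under 14 settings, 454 of 489 log2 distances kept their direction and side of the threshold, 15 passed it newly, 5 no longer passed it and 15 changed sign. With no division by length the last were MRPL16 (-0.01), MRPS12 (-0.04), MRPS6 (-0.09), MRPL1 (-0.76), MRPS18A (-0.89), MRPS36 (-1.13) and MRPL36 (-1.81). With at least 1 count in any library they were MRPL12 (0.21), MRPS11 (0.73) and MRPL22 (0.74), as the median gene falls when weaker genes enter. With at least 1 CPM in every library they were MRPS6 (-0.01), MRPS22 (-0.01) and MRPL36 (-0.11), none of them called. MRPL46 turned with the longest transcript (0.71) and the APPRIS transcript (0.55). Without replicate 3, MRPS6 was called above (0.32). With the APPRIS transcript, MRPL3 (3.04) exceeded MRPS34 (2.99), MRPL15 (2.79) and MRPL47 (2.62), which were among the 6 highest by union exon. No paired analysis was possible because the labels form 1 group. Depth limits the lowest genes: MRPS24 rests on 14 to 19 counts per library.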

Other observations

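The 13 protein-coding genes of the mitochondrial genome, whose products the mitoribosome makes, all lay above the median gene in limma's test. Among all genes tested, 45.3% did. MT-CO1, the catalytic subunit of cytochrome c oxidase, stood at 14806, 16208 and 13757 CPM per kb in replicates 1, 2 and 3, and MT-CO2, another subunit of that enzyme, at 11136, 9526 and 8642. MT-ATP8 was the lowest, at 58.9, 38.4 and 25.0, and 21.1% of its coding bases lie in a neighbouring gene of that strand. MT-ATP6, with 6.79% of its coding bases so shared, stood at 7248 ± 439 CPM per kb. The part of shared bases in the low counts of MT-ATP8 was not tested. The complex I genes ran from 715 ± 75.3 CPM per kb (MT-ND4L) to 7804 ± 544 (MT-ND4). MT-ND4L shares 1.36% of its coding bases with a gene of that strand. These are levels per annotated gene, and RNAs that carry more than 1 gene cannot be told apart by them. MT-CO1 was highest in replicate 2, where most mitoribosomal protein genes were lowest, whereas MT-CO2 and MT-ND4 were highest in replicate 1.

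Among the assembly factors, the enzymes that methylate mitochondrial rRNA differed in level. MRM2, listed under the older symbol FTSJ2, and NSUN4 lay above the median gene at 17.3 ± 1.26 and 13.2 ± 1.10 CPM per kb, as did MRM3, listed as RNMTL1, at 7.56 ± 0.936. TFB1M, which dimethylates small subunit rRNA, and METTL15 lay below it at 3.42 ± 0.575 and 3.08 ± 0.275, and MRM1 was not distinguished from it at 5.08 ± 0.647.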
